A study of Mus musculus with 12 samples.

Results

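The Reg genes encode small secreted C-type lectins of the gut and pancreas. All 5 members described here, Reg1, Reg3a, Reg3b, Reg3g and Reg4, were taken by name from the 48526 gene rows of each library, through their Ensembl identifiers with the version removed.

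The RNA came from epithelial cells of 4 female mice aged 3 months. The titles call the cells whole intestine epithelium, and the isolation protocol names the proximal part of the small intestine as their source. In 2 mice both acetyltransferase genes, Kat2a and Kat2b, were deleted (KAT2A/KAT2B DKO) by daily intraperitoneal tamoxifen at 100 mg/kg for 4 days, in a solvent of 10% ethanol and 90% corn oil. The 2 control mice received the solvent without tamoxifen, so genotype and tamoxifen cannot be told apart, and the labels used here name neither the recombinase driver nor the alleles of the controls. Cells were taken 2 days after the last injection and detached with EDTA for 50 minutes, and each mouse gave 3 libraries: input RNA, and RNA pulled down with J2 or with K1, antibodies that bind double-stranded RNA. The 12 libraries therefore form 6 groups of 2 animals, named below as control 1, control 2, DKO 1 and DKO 2.

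Reg3b and Reg3g are antibacterial lectins that epithelial cells release into the gut lumen, where they help to keep bacteria away from the mucosa. Microbial signals through MyD88 and the cytokine IL-22, acting through its receptor and the transcription factor STAT3, are known inducers of both. Reg1 and Reg3a are secreted relatives best known from the pancreas and the regenerating gut, and Reg4 is found in enteroendocrine and goblet cells.

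Reg1, Reg3a, Reg3b and Reg3g lie in one cluster on mouse chromosome 6, and Reg4 lies alone on chromosome 3. In GENCODE M21 (GRCm38) all 5 are protein-coding, and no other annotated gene overlaps any of them. Reg3b (ENSMUSG00000071356) spans chr6:78370657-78373466 on the plus strand and Reg3a (ENSMUSG00000079516) chr6:78380709-78383827 on the plus strand. Reg1 (ENSMUSG00000059654) spans chr6:78422711-78428667 on the plus strand and Reg3g (ENSMUSG00000030017) chr6:78466269-78468872 on the minus strand. Reg4 (ENSMUSG00000027876) spans chr3:98222156-98236748 on the plus strand. The cluster genes Reg2 and Reg3d, outside the list, are given where they bear on the members.

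Counts of the members can be told apart by sequence. None of the 5 had another gene with at least 97% identity over at least 100 bases of its principal transcript. The closest relative of Reg3b was Reg3g, at 77% identity over 548 aligned bases. Reg1 was closest to Reg2, at 79.7% over 556 bases, and Reg2 had at most 4 counts in any input library.

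The promoters of 3 Reg3 genes are printed because the 3 sit in one cluster and are closely related, while Reg3a moved against Reg3b and Reg3g in these libraries. The sequences are from RefSeq (GRCm38.p6) and run 5′ to 3′ on the gene's own strand, from 178 to 22 bases before the RefSeq start of the gene. Capitals mark a STAT element (TTCNNNGAA, where N is any base) or a TATA box (TATAAA), each searched on both strands. The stretches are chr6:78370707-78370863 on the plus strand for Reg3b, chr6:78468896-78469052 on the minus strand for Reg3g and chr6:78380531-78380687 on the plus strand for Reg3a.
Reg3b: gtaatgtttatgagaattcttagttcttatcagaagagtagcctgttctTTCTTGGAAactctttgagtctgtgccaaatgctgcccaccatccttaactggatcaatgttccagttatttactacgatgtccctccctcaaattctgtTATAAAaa
Reg3g: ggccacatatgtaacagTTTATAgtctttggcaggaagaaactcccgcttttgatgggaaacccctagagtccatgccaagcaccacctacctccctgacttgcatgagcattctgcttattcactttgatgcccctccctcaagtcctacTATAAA
Reg3a: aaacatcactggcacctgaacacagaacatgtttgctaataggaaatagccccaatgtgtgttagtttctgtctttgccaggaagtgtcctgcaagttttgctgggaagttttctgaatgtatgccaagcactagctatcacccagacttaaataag

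The search covered the 250 bases before the RefSeq start of each gene, which can lie inside the GENCODE span given above. The Reg1 window (chr6:78425733-78425982) lay wholly inside that span. The Reg3b window (chr6:78370635-78370884) lay mostly inside it, with all of the printed Reg3b stretch. The STAT element matched in Reg3b, 129 to 121 bases before the start, and in Reg3d, but not in Reg1, Reg3a, Reg3g or Reg4. Of 32851 RefSeq promoters of the same length, 7.02% held it. TATAAA was found 29 to 24 bases before the Reg3b start and 27 to 22 bases before that of Reg3g, and also in Reg1, against 12.4% of all promoters. Over the 250 bases, Reg3b and Reg3g had 173 positions in common (69.2% of the window) with 6 gap bases, and Reg3a and Reg3g 143 (57.2%) with 102. Counted over aligned pairs only, the order turned, with 70.0% for Reg3b and Reg3g and 71.9% for Reg3a and Reg3g. These matches describe letters only; no binding was measured.

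The deletion, the depth and the cell content of the libraries were checked before the members. Input libraries held 10307281 to 11474107 gene counts and control pulldowns 13308021 to 16139531, but DKO pulldowns only 2220291 to 5826361. DKO pulldowns also had more reads aligned to several places (15.8% to 46.7%, against 5.54% to 8.05% elsewhere) and gave 24.7% to 33.6% of their gene counts to their 10 top genes. In input, Kat2b fell by 1.51 on the log2 scale (SE 0.165, edgeR adjusted p 0.000632) and Kat2a fell by 0.88 (SE 0.227, adjusted p 0.0205). Epithelial markers such as Epcam and Krt8 were high, with 7 genes summing to 5010 to 6197 CPM in input (CPM, the count scaled by the library's total after TMM normalisation), against 8.99 to 27.5 CPM for 12 markers of stroma, muscle and vessels and 111 to 173 CPM for 18 leukocyte genes.

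In input RNA, Reg3b and Reg3g were the highest members in every animal and were far higher in both DKO animals than in both controls, while Reg1 and Reg3a were lower in DKO. Reg4 differed little. By the edgeR quasi-likelihood test with an adjusted p under 0.05, all 5 members differed between DKO and control in input, 3 higher and 2 lower. The same test called 35.9% of the 15088 genes tested, 18.8% higher and 17.1% lower.

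Reg3g, whose product kills Gram-positive bacteria, was measured in input at 2782 CPM in control 1 and 584 in control 2, against 13187 in DKO 1 and 11440 in DKO 2. Both DKO animals lay above both controls, and the controls themselves were far apart. Reg3g rose 7.52-fold, by 2.91 on the log2 scale (SE 0.638, 95% interval 1.42 to 4.40, edgeR adjusted p 0.0109). Of all genes tested, 2.47% had a larger rise. Because the controls differed, the size rests on which is used: it was 4.43 without control 1 and 2.18 without control 2.

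Reg3b, a lectin that acts mainly on Gram-negative bacteria, was measured in input at 4270 CPM in control 1 and 1265 in control 2, against 13319 in DKO 1 and 11240 in DKO 2. As for Reg3g, the groups did not overlap and control 1 was the higher control. Reg3b rose 4.56-fold, by 2.19 on the log2 scale (SE 0.511, 95% interval 1.00 to 3.38, edgeR adjusted p 0.0139). It was 3.31 without control 1 and 1.56 without control 2. By gene counts Reg3b and Reg3g ranked 3 and 4 of all genes in DKO 1 and 4 and 3 in DKO 2, against 13 and 20 in control 1 and 54 and 156 in control 2. Together they took 2.83% and 2.75% of all gene counts in the DKO inputs and 0.860% and 0.224% in the controls.

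Reg1, also known as lithostathine, was measured in input at 540 CPM in control 1 and 546 in control 2, against 243 in DKO 1 and 266 in DKO 2. Its replicates lay close together, and the groups were apart. It fell by 1.06 on the log2 scale (SE 0.132, edgeR adjusted p 0.00106), which is 2.08-fold lower.

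Reg3a, a further Reg3 lectin, was measured in input at 94.3 CPM in control 1 and 178 in control 2, against 39.5 in DKO 1 and 44.4 in DKO 2. It fell by 1.66 on the log2 scale (SE 0.276, edgeR adjusted p 0.00356), which is 3.16-fold lower, and 3.86% of all genes had a larger fall. Between the controls it ran opposite to Reg3b and Reg3g: control 1, with more Reg3b and Reg3g, had less Reg3a. The same order of the controls was seen for all 3 genes in their J2 and K1 libraries. Those libraries come from the same 2 control animals, so they do not repeat the order in further animals. Per length, Reg3g exceeded Reg3a 31.6-fold in control 1 and 3.5-fold in control 2, but 357-fold in DKO 1 and 276-fold in DKO 2.

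Reg4, a lectin of secretory cells, was measured in input at 66.9 CPM in control 1 and 86.6 in control 2, against 96.2 in DKO 1 and 113 in DKO 2. The groups did not overlap, but the gap was small: 0.49 on the log2 scale (SE 0.160), or 1.4-fold, at an edgeR adjusted p of 0.0497. The call was lost with DESeq2 (adjusted p 0.062), without TMM scaling (0.36, adjusted p 0.163), without control 1 (adjusted p 0.367) and without DKO 2 (adjusted p 0.134).

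Of the cluster genes outside the list, Reg3d had 30 and 18 counts in the control inputs and 143 and 130 in the DKO inputs. It rose by 2.59 on the log2 scale (SE 0.313, edgeR adjusted p 0.000943). Reg2 had 0 and 1 counts against 4 and 4, too few to test. The cluster on chromosome 6 thus held genes called higher (Reg3b, Reg3d, Reg3g) and lower (Reg3a, Reg1), and Reg3a follows Reg3b and Reg3d in genome order.

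All 5 calls in input came from the fit of the 4 input libraries. In a fit of all 12 libraries with 1 shared estimate of spread, none of the 5 passed (edgeR adjusted p 0.062 to 0.322). Of the 5, 4 had an unadjusted edgeR p under 0.05 there. Over all genes that fit called 1675, against 5421 in the fit of the 4 input libraries. The loss of calls was thus not limited to the members. In bulk tissue, fewer cells of a type and less RNA per cell cannot be told apart.

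**Figure D1:**
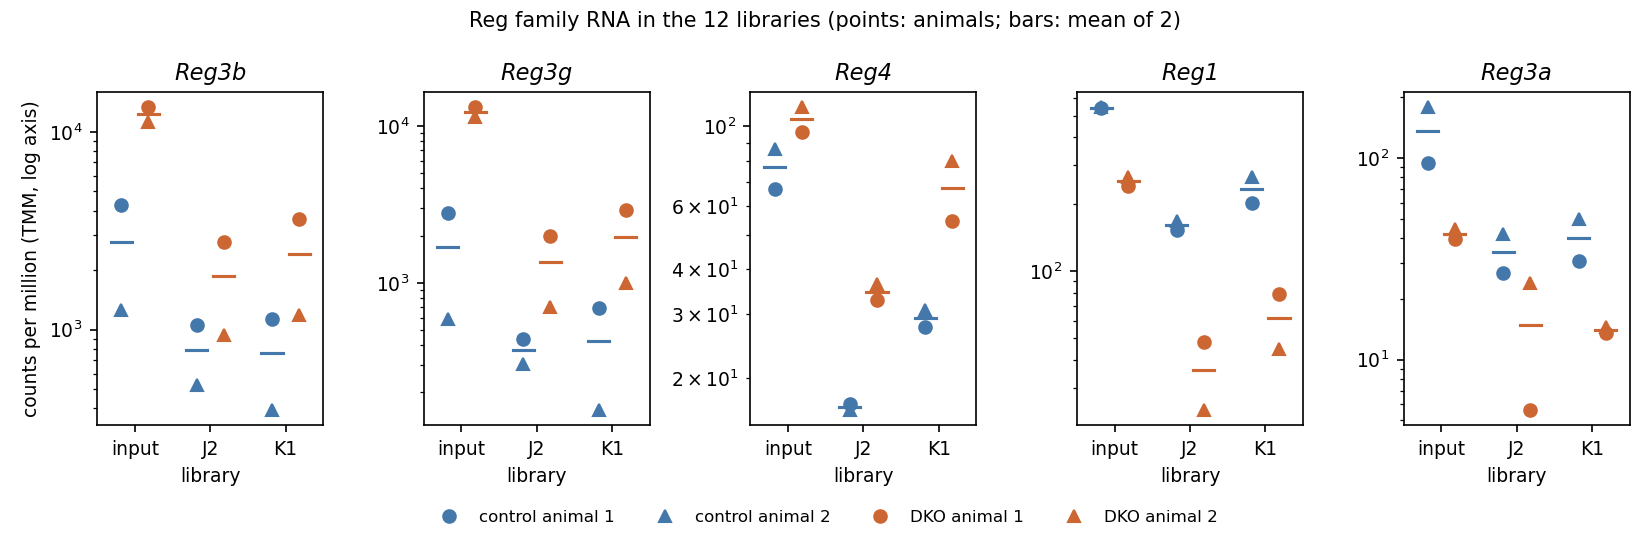
CPM (TMM scaled, log axis, a different range in each panel) of the 5 Reg genes in input, J2 and K1 libraries; circles are animal 1, triangles animal 2, and bars the mean of both. In input, Reg3b and Reg3g in DKO (11240 to 13319 CPM) lie above both controls, and Reg1 and Reg3a in DKO lie below both controls.

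The make-up of the family was read from RPKM, the level per kilobase of the principal transcript (769 to 1021 bases). In control input the order was Reg3b, Reg3g, Reg1, Reg3a and Reg4, and the values of Reg3b and Reg3g overlapped between animals. In DKO input it was Reg3g, Reg3b, Reg1, Reg4 and Reg3a, and again only Reg3g and Reg3b overlapped. With the length of all annotated exons in place of the principal transcript, a length chosen after seeing the data, Reg3b came before Reg3g in DKO as well. Of the family's summed RPKM in input, Reg1 made up 7.06% and 21.0% in the controls but 0.912% and 1.16% in DKO. Reg3a made up at most 6.39% and Reg4 at most 2.51%, both in control 2.

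The levels of Reg3b and Reg3g relative to each other were compared as well. The ratio of Reg3b to Reg3g counts in input was 1.54 in control 1 and 2.17 in control 2, against 1.01 in DKO 1 and 0.983 in DKO 2. The controls had 2.41 and 1.73 in J2, where the DKO animals had 1.39 and 1.34. The K1 values were 1.63 and 2.55 against 1.25 and 1.18. In each kind of library both controls lay above both DKO animals. The exact two-sided permutation test gave p = 0.333 each time, the smallest that 2 animals against 2 allow, so no difference in the ratio could be called.

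The DKO and control animals were then compared within each pulldown. These libraries come from the same 4 animals as the input, so they are not further animals. The sign of every member was the same in all 3 kinds of library: positive for Reg3b, Reg3g and Reg4, negative for Reg1 and Reg3a. Fewer passed the test, 1 of 5 in J2 (12.2% of 13181 genes called) and 3 of 5 in K1 (27.1% of 12888 genes called).

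In J2, Reg1 was 154 and 168 CPM in the controls against 48.2 and 23.7 CPM in DKO, and fell by 2.12 (SE 0.423, edgeR adjusted p 0.0403). That call was lost without control 1 (adjusted p 0.303) or control 2 (0.325). Reg3g was 440 and 303 CPM against 2003 and 702 CPM, apart between groups but with a log2 difference of 1.88 (SE 0.723) at adjusted p 0.131. Reg3b was 1060 and 523 CPM against 2785 and 940 CPM, so DKO 2 lay below control 1 (log2 difference 1.25, SE 0.824, adjusted p 0.322). That overlap depended on TMM scaling, with factors of 0.674 and 1.208 in the DKO libraries. As a share of all gene counts, Reg3b was 0.101% and 0.0486% against 0.188% and 0.113%, apart between groups. Without TMM scaling it did not pass either (log2 difference 1.01, edgeR adjusted p 0.244). Reg3a rested on 22 and 78 counts in the DKO libraries and Reg4 on 129 and 118, and neither passed (log2 differences -1.11 and 1.13, adjusted p 0.328 and 0.0773).

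In K1, Reg1 was 203 and 266 CPM in the controls against 78.9 and 44.8 CPM in DKO, and fell by 1.74 (SE 0.321, edgeR adjusted p 0.00976). Reg3a was 31.0 and 49.6 CPM against 13.5 and 14.5 CPM, and fell by 1.33 (SE 0.338, adjusted p 0.0272). Reg4 was 27.8 and 30.9 CPM against 54.6 and 80.1 CPM, a rise of 1.4 (SE 0.314, adjusted p 0.0182). In this pulldown all 5 members were apart between groups, with DKO 1 and DKO 2 on the same side of both controls. Reg3g (694 and 154 CPM against 2924 and 1004 CPM; log2 difference 2.35, adjusted p 0.0615) and Reg3b (1130 and 392 CPM against 3643 and 1186 CPM; 1.80, adjusted p 0.0877) did not pass. Without control 2, 0 of the 5 passed in K1 by edgeR, with 2 unadjusted p under 0.05 and Reg1 nearest (adjusted p 0.0525). The Reg4 call was also lost without control 1 (adjusted p 0.169) and without TMM scaling (adjusted p 0.0529). As single animals were left out, the share of all genes called differed widely too. Without DKO 2, all 5 passed in J2 and in K1, where 54.0% and 41.5% of all genes were called. Without DKO 1, 3 of the 5 passed in J2, where 59.0% of all genes were called. Without control 1 or control 2, 0 passed in J2 (1 unadjusted p under 0.05 each time), where 1.33% and 1.68% of all genes were called by edgeR, and the loss in K1 without control 2 came with 10.1%.

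**Figure D2:**
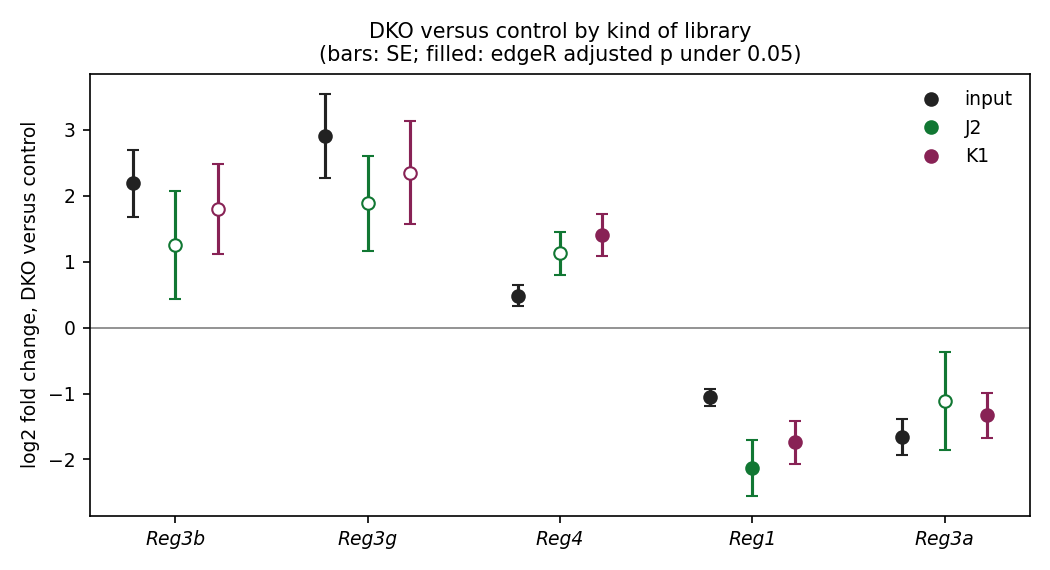
Log2 fold change of DKO against control for each Reg gene in input, J2 and K1 libraries, with bars for 1 SE of the edgeR fit; filled points passed an adjusted p under 0.05. Reg3b, Reg3g and Reg4 lie above 0 and Reg1 and Reg3a below 0 in all 3 kinds of library, and the pulldown bars are wider than those of input.

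Pulldown against input asks how strongly an RNA was retained by the double-stranded RNA antibodies, relative to the rest of its library. Reg RNA levels were lower in both pulldowns than in input in every animal, though not every gene passed the test. Compared within each animal, all 40 values (5 genes, 2 antibodies, 4 animals) lay below 0, also without TMM scaling. The 4 comparisons share the input libraries in pairs, so J2 and K1 values are not independent.

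In control animals, J2 lowered Reg4 by 2.20 on the log2 scale (SE 0.248, edgeR adjusted p 0.00204), Reg3a by 1.99 (SE 0.578, adjusted p 0.0337) and Reg1 by 1.75 (SE 0.382, adjusted p 0.0126). Of all 15923 genes tested 29.8% were called, 14.6% lower. Reg3g (-2.17, adjusted p 0.105) and Reg3b (-1.80, adjusted p 0.156) were as far below 0 but had SEs of 0.908 and 0.881, and did not pass. K1 in control lowered the same 3 genes, Reg3a by 1.85, Reg4 by 1.47 and Reg1 by 1.29 (edgeR adjusted p 0.00147, 0.00141 and 0.0059), where 39.8% of 15908 genes were called and 20.1% were lower. Reg3g (-2.06, adjusted p 0.0767) and Reg3b (-1.93, adjusted p 0.0562) did not pass, but both passed with each animal as a block (-2.04, adjusted p 0.00153, and -1.88, adjusted p 0.00305).

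In DKO animals, J2 lowered Reg3g by 3.16 (SE 0.945, edgeR adjusted p 0.0416), Reg1 by 2.79 (SE 0.401, adjusted p 0.00453) and Reg4 by 1.57 (SE 0.246, adjusted p 0.00566). The background was 25.7% of genes called, 13.4% lower. Reg3b (-2.70, adjusted p 0.0607) and Reg3a (-1.49, adjusted p 0.101) did not pass; with each animal as a block Reg3a did (-1.73, adjusted p 0.0427). K1 in DKO called all 5 lower, from Reg3g at -2.74 and Reg3b at -2.43 through Reg1 at -2.11 and Reg3a at -1.67 to Reg4 at -0.72 (edgeR adjusted p 0.0326, 0.0277, 0.000937, 0.00554 and 0.0428). Here 35.6% of genes were called and 21.0% were lower. In the fit of all 12 libraries 1 of the 5 passed. The share of all genes called in that fit is not given here, so the loss shows nothing particular to the members.

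The number of members called below input moved with the animals included. So did the share of all genes called. Without control 1 edgeR called 0 of the 5 in J2 for either genotype (2 unadjusted p under 0.05 in control, 3 in DKO) and 1 of the 5 in K1 of control; of all genes it called 0.0%, 1.98% and 2.0% in these fits. Without control 2 it called 0 in J2 for either genotype (1 and 4 unadjusted) and 0 in K1 of control (3 unadjusted), against 0.0%, 2.44% and 1.7% of all genes. Without either DKO animal it called all 5 in J2 of control and 4 of 5 in J2 of DKO and in K1 of control, where between 42.1% and 60.5% of all genes were called. All fold changes of members against input stayed below 0 in these fits.

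The members were among the more depleted RNAs without being at the extreme. In J2 of control animals, 6.46% to 10.5% of all genes lay lower than a given member, and in K1 of DKO animals 9.57% to 31.9%. Across genes, longer transcripts tended to be less depleted. In J2 of control animals Spearman's rho between principal transcript length and log2 enrichment was 0.527 over 12905 genes. In K1 of DKO animals it was 0.169 over 12879. Genes share libraries and are not independent. Of these genes 93.1% had a longer principal transcript than Reg4, the longest of the 5 members. The part of length in the depletion of Reg RNA was not tested.

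**Figure D3:**
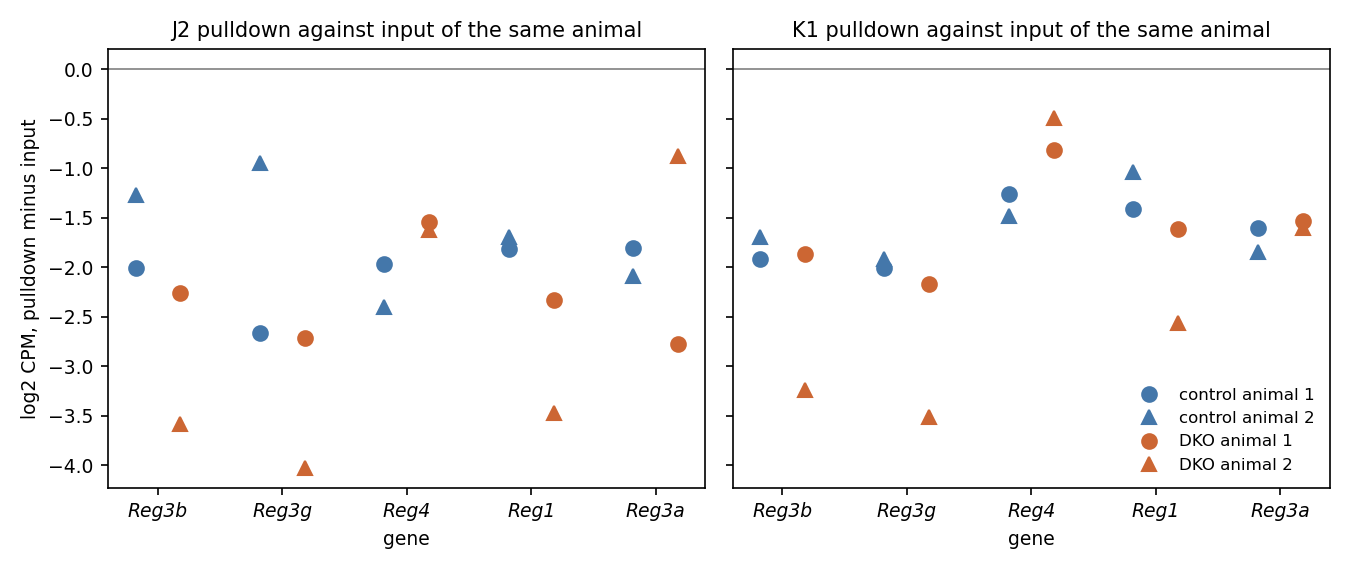
Log2 CPM in the J2 (left) or K1 (right) pulldown minus log2 CPM in the input of the same animal, for each Reg gene; circles are animal 1 and triangles animal 2. All 40 points lie below the line at 0.

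Whether deletion changed the retention itself was tested as the interaction of pulldown and genotype. No member passed for either antibody by edgeR (2.71% of genes called for J2, 5.47% for K1); 0 had an unadjusted p under 0.05. DESeq2 also called 0, with 1 unadjusted p under 0.05 for each antibody. For Reg4 both same-animal values of DKO lay above both of control, with a difference of 0.64 for J2 (95% interval -0.14 to 1.42, edgeR adjusted p 0.271) and 0.74 for K1 (-0.02 to 1.51, adjusted p 0.225). For Reg1 both lay below, with -1.04 for J2 (-2.26 to 0.17, adjusted p 0.253) and -0.82 for K1 (-1.73 to 0.09, adjusted p 0.259). Reg3g in DKO also lay below both controls, with -0.99 for J2 (-3.81 to 1.84, adjusted p 0.643) and -0.68 for K1 (-3.23 to 1.87, adjusted p 0.763). Reg3b lay below both in J2 only (-0.89, interval -3.67 to 1.88, adjusted p 0.67) and overlapped in K1 (-0.50, interval -2.70 to 1.70, adjusted p 0.801). Without TMM scaling the same-animal K1 values of Reg3b did not overlap, with -2.20 and -2.03 in control against -2.36 and -3.53 in DKO. Reg3a overlapped with both antibodies (0.50 and 0.17, adjusted p 0.729 and 0.857). The differences given here are from the fit of group means, which does not pair libraries of an animal. With each animal as a block, Reg3g had -1.55 for J2 and -0.88 for K1, and Reg3b -1.25 and -0.75. None of these passed (edgeR adjusted p 0.377 to 0.506). The median of all genes in the K1 comparison was -0.20.

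Genes of the routes that are known to induce Reg3 lectins were examined in input. Of 11 genes of the IL-22 and STAT3 route 10 were tested, and 5 were higher in DKO and the other 5 not called (list median 0.56, all genes -0.00097). Socs3, a feedback inhibitor that STAT3 induces, rose from 61.2 ± 6.79 to 358 ± 86.9 CPM (SD, n = 2), a log2 change of 2.59 (SE 0.196, edgeR adjusted p 0.000182). Il6st, the shared receptor chain gp130, rose by 0.86, Jak1 by 0.59 and Stat3 itself by 0.52 (edgeR adjusted p 0.00193, 0.0122 and 0.0229). The IL-22 receptor chains were not called: Il22ra1 had a log2 difference of -0.09 (adjusted p 0.619) and Il10rb of 0.21 (adjusted p 0.319). Of 13 genes of the IL-17 and MyD88 route 12 were tested, with 5 higher and 2 lower. Tirap rose by 1.44, Myd88 by 1.36, Rela by 1.19 and Traf6 by 0.97, all adaptor or signalling genes of this route (edgeR adjusted p 0.000954, 0.00039, 0.00111 and 0.000948). The 2 called lower were Nfkbiz, by 0.42, and Il17rc, by 0.36 (edgeR adjusted p 0.0265 and 0.0445). In input, 18.8% of all genes were called higher and 17.1% lower. The part of these routes in the Reg results was not tested.

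Of 20 epithelial genes known to be induced by IL-22 or STAT3, 16 were tested. In DKO input 13 were higher and 1 lower, with a median of 3.25. This list, like the others, was chosen with earlier results of these data known. Fut2, a fucosyltransferase of the epithelial surface, rose from 36 and 24 counts to 4744 and 7520 (log2 change 7.74, SE 0.299, edgeR adjusted p 3.67e-05). Lcn2, the iron-trapping lipocalin 2, rose by 5.52 and Duoxa2, a maturation factor of an epithelial oxidase, by 4.78 (edgeR adjusted p 0.000364 and 0.000408). Saa3, an acute-phase serum amyloid, had 1 count in each control against 234 and 98 in the DKO animals. With the controls set to a floor of 3 counts per library, it was at least 58.7-fold higher. These 4 genes had at most 124 counts in a control input, where Reg3g had 8097 or more. The gene called lower was Pigr, the most abundant of the list in control input. Its mean was 5612 CPM in control against 1774 CPM in DKO (log2 change -1.62, edgeR adjusted p 0.000682). Dmbt1, the next most abundant, was not called (log2 difference 0.04, edgeR adjusted p 0.916). Between the control inputs, Fut2, Lcn2 (28 and 8 counts) and Duoxa2 (124 and 47) were higher in control 1, as Reg3g was. Saa3 (1 count each) and Pigr (71403 and 76873) differed little. Summed over the list, the level was 9888 and 7982 CPM in the controls against 8751 and 8161 CPM, which overlap. The part of IL-22 or STAT3 in the Reg results was not tested.

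Of 15 genes listed as other secreted antimicrobials 13 were tested, with 6 higher and 1 lower (median 0.88). The gene called lower was Nlrp6 (log2 change -1.36, edgeR adjusted p 0.00053), which encodes an intracellular sensor and not a secreted antimicrobial. Retnlb, the secreted goblet-cell protein RELM-beta, rose from 6 and 3 counts to 170 and 885 (log2 change 6.87, SE 0.959, edgeR adjusted p 0.00172), and Ltf, lactoferrin, rose by 4.94 (adjusted p 0.000225). Sprr2a1 and Sprr2a2 rose by 2.61 and 2.87 (adjusted p 0.000491 and 0.000363), but they belong to a set of near-identical copies whose counts are uncertain. Extl3, a proposed receptor for Reg proteins, had a log2 difference of 0.18 (adjusted p 0.393).

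Markers of the cells that could carry Reg RNA were examined in the same way; of all genes, 35.9% were called in input. Of 13 Paneth-cell genes 3 were higher and 3 lower in DKO input; Lyz1, lysozyme, fell by 1.21 and Defa21 and Defa22, which are defensins of a multigene family, by 2.47 and 2.31 (edgeR adjusted p 0.00682, 5.69e-05 and 0.000182), while Pnliprp2, a pancreatic lipase-related protein, rose by 1.46 (adjusted p 0.00415). The other genes called higher were Mmp7, by 0.64, and Nupr1, by 0.91 (adjusted p 0.0154 and 0.0131), named after their values were seen. Summed over the list the level was 3904 and 4481 CPM in the controls against 1822 and 3496 CPM. Of 11 goblet-cell genes 4 were higher and 1 lower, and the sums overlapped (10650 and 11809 against 12832 and 10676 CPM). Of 14 enteroendocrine genes 7 were higher and 1 lower, with sums of 249 and 272 CPM against 432 and 316 CPM; Reg4 is known from these cells. Of 15 enterocyte genes 5 were lower and the other 10 not called, Lct, lactase, falling by 5.31 and Sis, sucrase-isomaltase, by 1.36 (edgeR adjusted p 5.32e-05 and 0.00116).

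Stem-cell and proliferation genes were lower in DKO, 7 of 12 and 10 of 12, and the others were not called. Olfm4, a crypt-base marker, fell by 3.04 and Mki67 by 2.07 (edgeR adjusted p 0.000483 and 0.000157). Of 18 leukocyte genes 14 were tested, 2 higher and 6 lower; summed they were 173 and 165 CPM in the controls against 133 and 111 CPM. Il17a had 0 counts in all 12 libraries, and Il22 had 0 counts in 11 of 12 and 1 count in the other. Among stromal and vessel genes 1 of the 6 tested, Tie1, was higher, with 0 counts in both controls and 152 and 97 in DKO. The part of these cell markers in the Reg results was not tested.

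Because Reg genes are abundant in pancreas, 15 pancreatic acinar genes were examined. Of these 3 were tested in input, and edgeR called 0 of them, with 0 at an unadjusted p under 0.05; DESeq2 also called 0. Amy2a5, amylase, had 0 counts in all 4 input libraries. The list summed to 65.9 and 79.3 CPM in the control inputs against 45.6 and 115 CPM, which overlap, against 243 to 546 CPM for Reg1 alone. Nearly all of that sum was Clps, colipase, which the Paneth-cell list holds too (37.6 to 108 CPM); the other 14 acinar genes summed to 5.26 to 8.005 CPM.

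**Figure D4:**
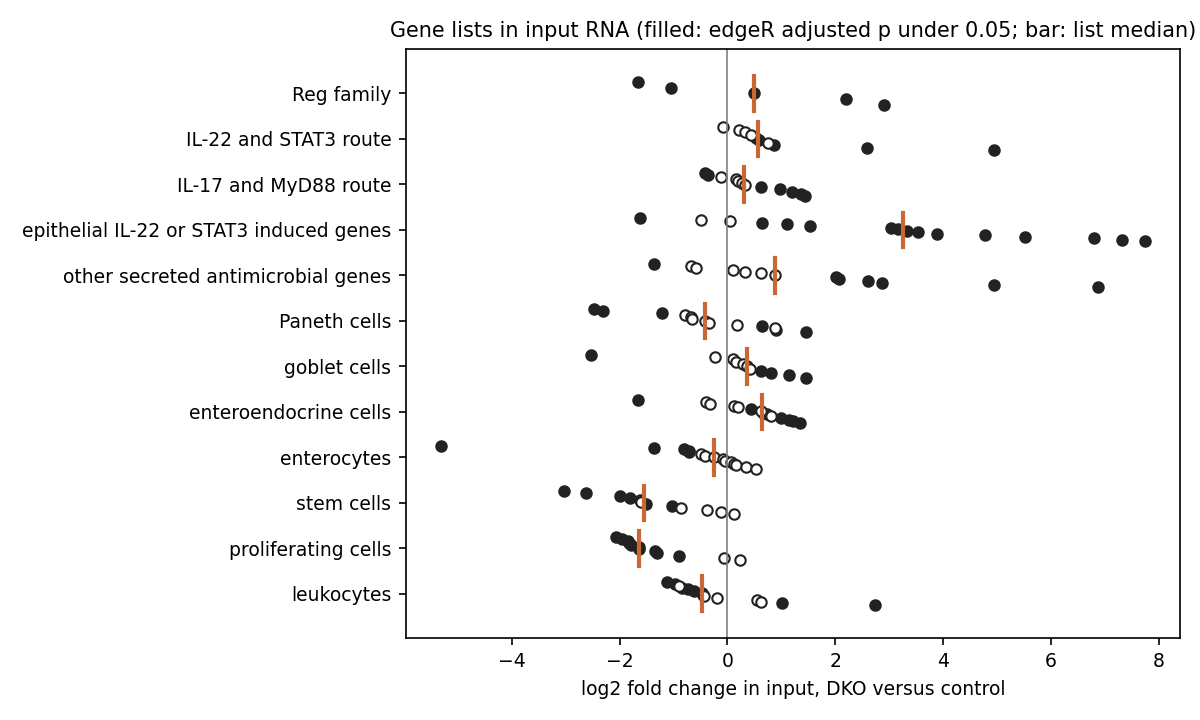
Log2 fold change in input of the genes in each list, DKO against control; filled points passed an edgeR adjusted p under 0.05 and the bar is the list median. The listed genes known to be induced by IL-22 or STAT3 have a median of 3.25, and stem-cell and proliferation genes lie mostly below 0.

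Across all 12 libraries, the genes whose pattern was most like each member were sought by the root mean square difference of centred log2 CPM, among 9377 genes with a mean of at least 50 counts. Nearest to Reg3b was Reg3g (0.439), followed by Mt1 (0.580), a metallothionein, and Ly6e (0.594). Nearest to Reg3g were Reg3b, Mt2 (0.747) and Ly6e (0.776). Reg1 was nearest to Mgst3 (0.266), Smim24 and Bst1, and Reg3a to Chchd7 (0.483), Rpl34 and Zfand6. Reg4 was nearest to Tmx3 (0.328), Pcna and Psmd14. The 12 libraries come from 4 animals, and the lists were unstable. When 1 animal was left out, 1 or 2 of the 3 nearest genes were kept for Reg3b and for Reg3g, 0 to 2 for Reg1, and 0 or 1 for Reg3a and for Reg4.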

How the data were processed

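Per the labels, the authors deposited 1 file of whole-number counts per library, with reads assigned to genes regardless of strand; libraries carried molecular identifiers and were read as pairs of 150 bp. The submitters' processing notes name STAR 2.7.10b, UMI-tools 1.1.4, HTSeq 2.0.2 and the builds mm10 and GRCm38.p4 without their roles; if duplicates were kept, counting error understates the true error. Rows that name no gene were left out. Symbols came from GENCODE M21 (48144 of 48526 identifiers matched without version, 40606 with).

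Counts were tested with edgeR 4.0.16 (quasi-likelihood, TMM, low counts removed by filterByExpr at a minimum of 10, p adjusted over all genes by Benjamini-Hochberg and called under 0.05). DKO was compared with control in fits of 4 libraries, and pulldown with input, and their interaction, in fits of 8. Log2 CPM used a prior count of 2. No batch is given in the labels. Replicates of a group are different animals; pulldown and input of the same animal deviated together (correlation 0.208 to 0.296), which the shared animal identifier in the labels also gives, so the fit with each animal as a block is given where it changes a call. The edgeR fit was tested on simulated data. Of genes changed by 2 log2 units, 100% of 112 were recovered for DKO against control in input (14694 genes, 4 false calls). For the J2 interaction 77.9% of 104 were recovered (15160 genes, 12 false calls). Every simulated gene had the same spread, and no effect was shared by libraries of an animal. These shares therefore do not give the power for the members in the real libraries.

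Alternatives were DESeq2 1.42.0, its size factors, no TMM, no low-count filter, all 12 libraries, thinned counts, a replicate block and leaving out each animal. The members and gene lists were chosen with earlier results of these data known. Named genes are the members, Kat2a, Kat2b, Reg2, Reg3d, 6 pathway genes, up to 4 genes per list with the largest absolute change in input (adjusted p under 0.05, mean of at least 50 counts) and the 3 genes nearest in pattern to each member. Il22, Il17a, Amy2a5 and Epcam and Krt8 were named outside that rule, as defining markers. Pigr, Dmbt1, Nlrp6, Il17rc, Nfkbiz, Mmp7, Nupr1 and Clps were named after their values were seen.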

Additional observations from a re-analysis of the deposited data

How the results depend on the processing

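Directions of the members held under nearly every alternative, and calls did not. Over 495 member values under alternatives (9 comparisons, 5 genes, 11 settings), 390 kept direction and call, 52 lost the call, 51 gained it and 2 reversed. The reversals were the Reg3a interaction for J2 without DKO 2 (-0.80; up to 1.12 leaving out 1 animal) and for K1 without control 2 (-0.027; up to 0.24). Il22ra1 in input also turned, to 0.012, without DKO 2 (down to -0.20 leaving out 1 animal). The cause was not tested.

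Of the 5 members, the number called for DKO against control in input fell to 0 with all 12 libraries in one fit and was 4 to 5 when leaving out 1 animal. In J2 it was 2 with DESeq2, 2 without the low-count filter, 2 with all 12 libraries and 0 to 5 leaving out 1 animal. In K1 it was 5 with DESeq2, 5 without the filter, 5 with the replicate block and 0 to 5 leaving out 1 animal. For J2 against input in control it was 5 with DESeq2, 5 without the filter and 0 to 5 leaving out 1 animal, and in DKO 5 without the filter and 0 to 4. For K1 against input in control it was 5 without TMM, 5 without the filter, 5 with the replicate block and 0 to 4, and in DKO 1 with all 12 libraries and 2 to 3. For each interaction it was 0 to 1 leaving out 1 animal. The counts of members in this paragraph stand without the share of all genes called in the same fit, which moved as well. They therefore show nothing particular to the members. Where 1 animal is left out, the lone sample of its group is assumed to vary like the others. For DKO against control, the replicate block joins animals by replicate number. Replicate numbers of DKO and control name different animals (correlation of deviations 0.0261 in input, -0.088 in J2, -0.097 in K1), so there the block has no basis in the design. For pulldown against input and for the interactions, the block is the animal, which pulldown and input share.

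Calls over all genes ranged from 1675 to 6462 in input, 177 to 8635 in J2 and 1149 to 5819 in K1 for DKO against control. For pulldown against input they ranged from 0 to 10139 (J2, control), 337 to 7791 (J2, DKO), 281 to 9189 (K1, control) and 3005 to 6366 (K1, DKO), and for the interactions from 0 to 6990 and from 0 to 3802. In the DKO pulldowns Reg3a had 22 to 78 counts, and replicates differed beyond counting error (chi-square per degree of freedom 84.4 in J2 and 43.0 in K1, against 9.78 to 22.7 in the other groups).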
